A study of Mus musculus with 8 samples.

Results

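The proteasome subunit genes are the 47 genes of the 19703 in the deposited table whose symbols start with Psma to Psmg and a digit. They were chosen by symbol alone, with no measured value. Of the 47, 46 code for a subunit, activator, inhibitor or assembly factor of the proteasome. The other, Psmc3ip, codes for a meiotic recombination factor and matches by its name only. A mean normalized count of at least 10 over the libraries was reached by 45 of the 47, and these were tested. Psma8, an alpha subunit known from the testis, and Psmb11, the thymus-specific catalytic subunit, were not, since their means fell short of it. Psmb5, Psmd2 and Psme2b had no row in the table used here and are not analysed here.

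The proteasome is the large protease that degrades proteins tagged with ubiquitin. Its 20S core is a barrel of alpha rings, which gate the entrance, and beta rings, which hold the catalytic sites in Psmb6 (beta1), Psmb7 (beta2) and Psmb5 (beta5). In lymphocytes, and elsewhere after interferon-gamma, these are replaced in newly built particles by Psmb9, Psmb10 and Psmb8, which makes the immunoproteasome and changes the peptides offered on MHC class I. The 19S cap binds ubiquitin and unfolds substrates with a ring of ATPases (Psmc1 to Psmc6) and a set of non-ATPase subunits (Psmd genes). Alternative caps are the interferon-inducible PA28 alpha and beta (Psme1, Psme2), the nuclear PA28 gamma (Psme3) and PA200 (Psme4). NRF1, the product of Nfe2l1, raises proteasome genes together when the proteasome is inhibited.

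Promoters are shown for the immunoproteasome and PA28 genes, known as interferon-inducible, and for Psmb6, the constitutive counterpart of Psmb9. Each runs 5′ to 3′ on the strand of its gene, from 170 bases before the annotated start to 30 bases after it (RefSeq, GRCm38.p6). The windows are chr17:34198025-34198224 (plus strand) for Psmb8, chr17:34187301-34187500 (minus strand) for Psmb9 and chr8:105938363-105938562 (minus strand) for Psmb10. Those of the PA28 genes are chr14:55591072-55591271 (minus strand) for Psme2 and chr14:55578324-55578523 (plus strand) for Psme1, and that of Psmb6 is chr11:70525187-70525386 (plus strand). GENCODE M21, used for the gene positions given below, lets Psmb8, Psmb9 and Psme1 begin further upstream than RefSeq does. The windows of these genes lie wholly within their GENCODE bounds, so bases before the RefSeq start may be transcribed there. Capitals mark a match, on either strand, to one of 2 letter patterns, named under the sequences.
Psmb8: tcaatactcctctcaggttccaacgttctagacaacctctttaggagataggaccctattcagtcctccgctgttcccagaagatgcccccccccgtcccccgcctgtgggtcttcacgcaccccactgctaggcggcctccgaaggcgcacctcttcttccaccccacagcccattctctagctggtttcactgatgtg
Psmb9: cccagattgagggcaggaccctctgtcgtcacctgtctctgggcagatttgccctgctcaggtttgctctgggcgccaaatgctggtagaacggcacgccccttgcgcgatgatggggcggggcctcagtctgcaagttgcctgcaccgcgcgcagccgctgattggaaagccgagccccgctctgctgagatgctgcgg
Psmb10: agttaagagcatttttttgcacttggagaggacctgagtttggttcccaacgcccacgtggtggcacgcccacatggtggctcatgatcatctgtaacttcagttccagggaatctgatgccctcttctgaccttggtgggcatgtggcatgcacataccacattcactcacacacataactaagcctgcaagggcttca
Psme2: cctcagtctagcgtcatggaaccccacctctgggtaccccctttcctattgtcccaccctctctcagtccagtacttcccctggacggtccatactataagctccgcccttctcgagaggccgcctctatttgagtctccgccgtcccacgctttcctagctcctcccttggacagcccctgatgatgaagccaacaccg
Psme1: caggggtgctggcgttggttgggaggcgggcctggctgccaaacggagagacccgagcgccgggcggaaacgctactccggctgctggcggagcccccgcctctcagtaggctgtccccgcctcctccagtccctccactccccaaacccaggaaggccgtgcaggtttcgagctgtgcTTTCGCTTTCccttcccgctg
Psmb6: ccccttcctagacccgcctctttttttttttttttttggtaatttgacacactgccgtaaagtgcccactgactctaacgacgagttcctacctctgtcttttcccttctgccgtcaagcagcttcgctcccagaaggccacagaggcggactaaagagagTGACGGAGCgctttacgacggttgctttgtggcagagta
GAAANNGAAA, the core of interferon response elements, was found in the Psme1 window, after the start and on the opposite strand, and TGACNNNGC, the core of sites that NRF1 binds, was found in the Psmb6 window. Over windows of 300 bases (250 before the start and 50 after), both strands and every annotated start, 39 of the 47 genes had a promoter to search. GAAANNGAAA was in 5 of the 39 (12.8%, Psmb3, Psmd4, Psmd9, Psme1 and Psmg4), against 3.99% of 27025 promoter-annotated genes. TGACNNNGC was in 5 of the 39 (12.8%, Psmb6, Psmc6, Psmd12, Psmd9 and Psme4), against 3781 of the 27025. A match is a description of these letters and not a binding site.

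The cells were wild-type regulatory T cells (Tregs), sorted by GFP from mice of the Foxp3-GFP reporter strain. All were cultured with anti-CD3/anti-CD28 beads and with IL6, IL23 and IL1B, a mix that favours Th17 cells, and their mRNA was sequenced on day 6. FcCD70, a soluble CD70 that binds the costimulatory receptor CD27 of T cells, was added to the FcCD70 cultures and not to the untreated ones. Values are from 3 FcCD70 libraries (numbered 1 to 3) and 4 untreated libraries (numbered 1 to 4), and the sample titled FcCD70 and numbered 4 is not analysed here. In all 8 samples the treatment field contradicts the title, so the groups follow the titles and every direction holds only if those are right. The labels do not say that samples came from separate mice or cultures, nor what a number stands for, so the spread that p-values are set against may be technical.

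The FcCD70 libraries held 18183470 to 23359331 reads assigned to genes and the untreated libraries 18159685 to 23527899. All 6 Treg and T cell markers (Cd3e, Cd4, Foxp3, Il2ra, Ikzf2, Ctla4) were present, and their summed normalized count was 54432 to 68729 in the FcCD70 libraries and 64938 to 69401 in the untreated ones. The lowest sum was that of the FcCD70 library numbered 2, where Foxp3 stood at 2788, against 4811 to 6585 in the other 6 libraries. Of the markers of other cells, Ncr1 of NK cells was at 0 in every library and Klrb1c of NK cells reached at most 7.94 in the FcCD70 libraries and 5.83 in the untreated ones, while Csf1r and Adgre1 of myeloid cells reached at most 3.03. The summed B cell list was 33343 to 37428 in the FcCD70 libraries and 33328 to 36481 in the untreated ones, most of it Ighm. The summed myeloid markers were 63.5 to 105 in the FcCD70 libraries and 91.3 to 121 in the untreated ones, most of it Cd68. The summed CD8 T cell markers were 149 to 201 in the FcCD70 libraries and 118 to 183 in the untreated ones, most of it Cd8b1. In RNA from bulk cultures, fewer cells of a type and less RNA per cell cannot be told apart.

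Transcripts of the core, the 19S cap and the immunoproteasome were all abundant in these Tregs. The order of levels between genes depended on the length they were divided by, here that of the longest principal transcript, with the union of all annotated exons as the other choice. On a scale of normalized counts per kilobase of the principal transcript, 27 genes had a mean of at least 1000 over the 7 libraries. The share of all genes at that level was not computed, so the count has no reference. Per kilobase of all exons some of these genes, such as Psmb6 and Psmb9, fell below 1000. Psmb8, which codes for the catalytic subunit beta5i, had the highest level on this scale, 3415 ± 561 (SD, n = 7). It was followed by Psme1 (3276 ± 451), the alpha subunits Psma6 (3200 ± 742) and Psma1 (2786 ± 532), the beta subunit Psmb1 (3060 ± 570), and Psme2 (2646 ± 386). The neighbours in this order lay within 1 SD of each other. Per kilobase of all exons Psma6 was highest (mean 2702), followed by Psme1 (1649) and Psmb8 (1644). Psmb9 (1611 ± 297) was close to its counterpart Psmb6 (1989 ± 270.0), and Psmb10 (911 ± 173) was at less than its counterpart Psmb7 (1950 ± 364). Within a library the per-kilobase ratio of Psmb9 to Psmb6 was 0.815 ± 0.146 and that of Psmb10 to Psmb7 was 0.476 ± 0.103 (SD, n = 7). Per kilobase of all exons Psmb9 was again below Psmb6 (595 and 848), but Psmb10 was above Psmb7 (701 and 661), so the order of the second pair turned with the length used.

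The 6 ATPase genes lay between 1291 (Psmc5) and 1520 (Psmc3) per kilobase of the principal transcript, and between 474 (Psmc2) and 1219 (Psmc5) per kilobase of all exons. On the first of these scales the 10 non-ATPase genes spread from 557 (Psmd1) to 2107 (Psmd4). Assembly factors were lower than most subunits there, although Psmg2 was above Psmd1. Per kilobase of all exons Psmg2 (402) was above Psmd11 (327) and Psmd1 (239), so the order depended on the length used. Per kilobase of the principal transcript the chaperones of the core ranged from 124 (Psmg3) to 659 (Psmg2). Those of the 19S base, Psmd5, Psmd9 and Psmd10, ranged from 137 to 404. Psmf1, which codes for the inhibitor PI31, stood at 292 ± 11.1 (SD, n = 7), with a coefficient of variation of 3.79%, the lowest of the 45 genes. The median coefficient of variation was 14.3% over the 45, against 14.6% over the 11083 genes tested.

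FcCD70 was compared with no addition, the contrast the study was built for, in Tregs held in Th17-favouring cytokines. No proteasome gene passed the test. In limma (log2 of the normalized count plus 1, replicate number as a block, Benjamini-Hochberg over 11083 genes), 0 of 45 were called at an adjusted p under 0.05, where the share called over all genes was 0.00%. At an unadjusted p under 0.05 the count was also 0 of 45, against 1.70% of all genes. In the authors' deposited table, from DESeq2 on 8 libraries, 0 of the 45 had an adjusted p under 0.05 (0.00% of all genes) and 0 an unadjusted p under 0.05 (1.45%). The log2 fold change (FcCD70 minus untreated) was above 0 for 35 of the 45 and below 0 for 10, against 49.1% of all genes above 0. Its median was 0.067 over the 45 and -0.0035 over all genes. For the 44 proteasome genes it ran between -0.22 (Psmd9) and 0.22 (Psmd8), and the 95% intervals lay between -0.77 and 0.63. The adjusted p was 0.9998 for each of the 45.

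**Figure D1:**
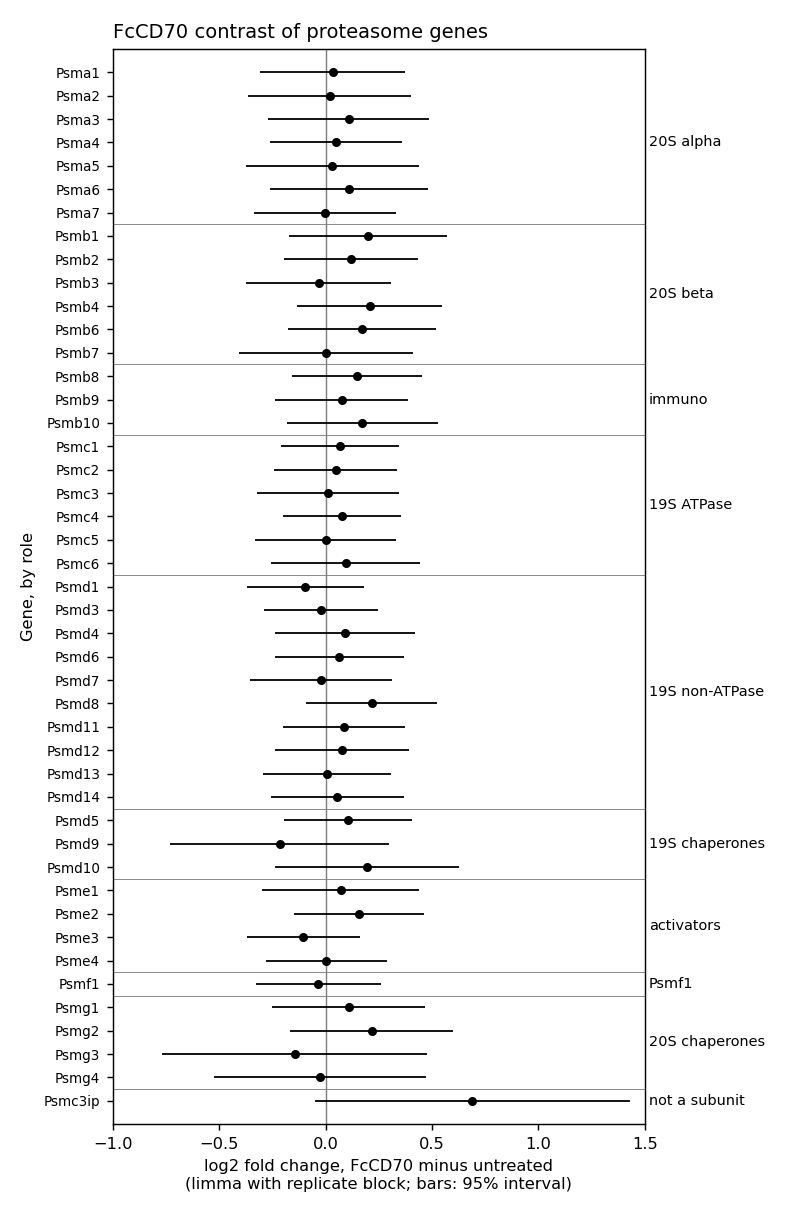
Log2 fold change of each of the 45 genes tested (FcCD70 minus untreated, limma with the replicate number as a block), ordered by role from top to bottom. Points are estimates and bars are 95% intervals, and every bar crosses 0.

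In the 20S core, 6 of 7 alpha genes and 5 of 6 constitutive beta genes had a fold change above 0, with medians of 0.033 and 0.14. Psma6, an alpha subunit with the smallest p of its class, had normalized counts of 2774, 5042 and 2878 in the FcCD70 libraries and 3149, 3292, 3097 and 3105 in the untreated ones. The FcCD70 library numbered 2 alone lay above the untreated range and FcCD70 1 and 3 below it. Its log2 fold change was 0.11 (SE 0.17). Psmb4, a non-catalytic beta subunit and the beta gene with the smallest p, had 2680, 4044 and 2625 in the FcCD70 libraries, against 2612, 2619, 2708 and 2726 in the untreated ones, and a fold change of 0.21 (SE 0.15). Here too only the FcCD70 library numbered 2 left the untreated range. Of the catalytic genes, Psmb6 had 1460, 2044 and 1564 in the FcCD70 libraries and 1569, 1365, 1530 and 1576 in the untreated ones (fold change 0.17, SE 0.15). Psmb7 had 1908, 3109 and 1915 in the FcCD70 libraries and 2487, 2060, 2215 and 2141 in the untreated ones (fold change 0.00069, SE 0.18). Both were highest in FcCD70 2, and Psmb7 was below the untreated range in FcCD70 1 and 3.

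The 3 immunoproteasome genes had log2 fold changes above 0, with a median of 0.15, and none passed the test. Psmb8 (chr17:34197721-34201454, plus strand, GRCm38) had normalized counts of 4754, 6091 and 6277 in the FcCD70 libraries, and 4506, 4530, 6547 and 6207 in the untreated ones (fold change 0.15, SE 0.14). Psmb9 (chr17:34181987-34187764, minus strand), its neighbour in the MHC class II region, had 1736, 2378 and 2369 in the FcCD70 libraries and 1716, 1839, 2653 and 2557 in the untreated ones (fold change 0.075, SE 0.14). Psmb10 (chr8:105935735-105938444, minus strand) had 986, 1412 and 1354 in the FcCD70 libraries, against 962, 939, 1456 and 1255 in the untreated ones (fold change 0.17, SE 0.16). In each of these genes the groups overlapped over nearly their whole range. The low libraries were FcCD70 1 and untreated 1 and 2, and the high ones were FcCD70 2 and 3 and untreated 3 and 4. Reads of an overlapping gene may enter the counts, since the strand setting is not given in the sources used here: Psmb9 shares 212 exon bases (5.79% of its own) with Tap1 on the opposite strand, and Psmb8 shares 14.7% with the antisense gene Gm20496.

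**Figure D2:**
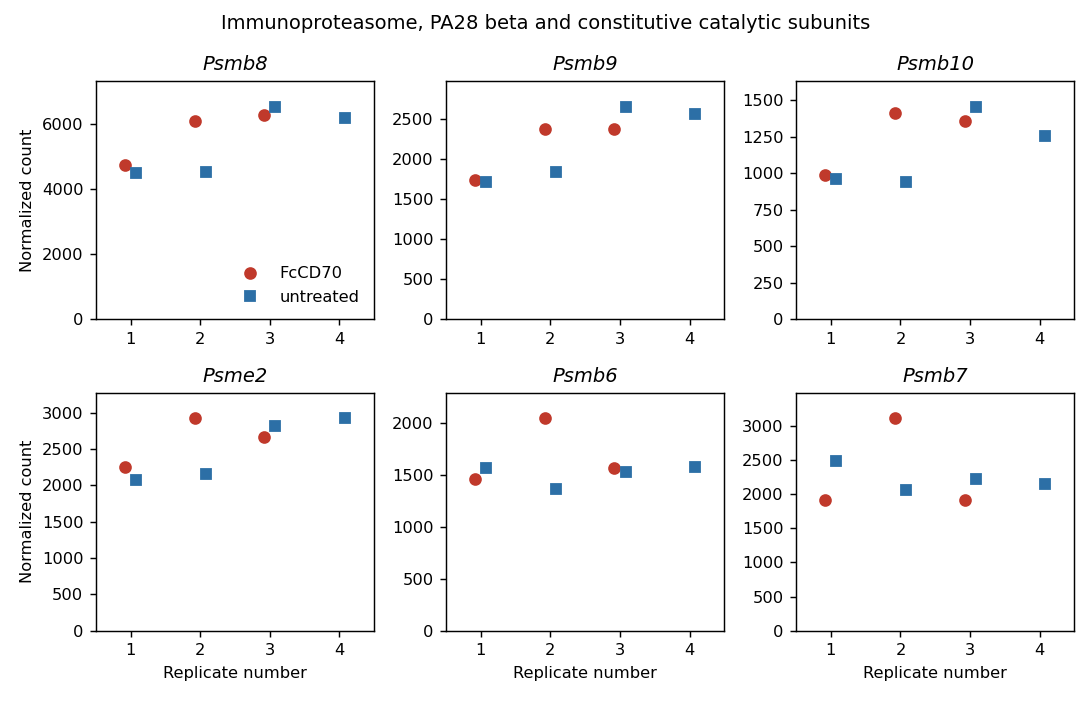
Normalized count (vertical axis, from 0) of the immunoproteasome genes Psmb8, Psmb9 and Psmb10, the PA28 gene Psme2 and the constitutive catalytic genes Psmb6 and Psmb7, by replicate number. Circles are FcCD70 libraries and squares untreated libraries. Psmb8, Psmb9, Psmb10 and Psme2 are low in both libraries numbered 1 and in untreated 2, and Psmb6 and Psmb7 stand out in FcCD70 2.

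The gene of PA28 beta was low in the same 3 libraries as the immunoproteasome genes, FcCD70 1 and untreated 1 and 2. Psme2 had 2255, 2922 and 2665 in the FcCD70 libraries and 2081, 2154, 2818 and 2925 in the untreated ones (fold change 0.16, SE 0.14). Its partner Psme1 had 3014, 4436 and 3725 in the FcCD70 libraries, and 3653, 3012, 3908 and 3755 in the untreated ones (0.071, SE 0.16). The nuclear activators had other patterns. Psme3 had 3390, 2973 and 3334 in the FcCD70 libraries and 3509, 3330, 3573 and 3386 in the untreated ones. Its fold change was -0.10 (SE 0.12), and in 3 of 3 same-numbered pairs the FcCD70 library was the lower one. Psme4 had 4333, 3450 and 3610 in the FcCD70 libraries, against 3751, 3779, 3787 and 3728 in the untreated ones (0.0025, SE 0.13). Both were lowest of all 7 libraries in FcCD70 2, which most other proteasome genes were not. Their log2 deviations there from the mean of the 7 libraries were -0.17 (Psme3) and -0.13 (Psme4). With each library's trend on transcript length removed, as described below, these were -0.22 and 0.15, so the 2 genes then differed in sign.

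All 6 ATPase genes of the 19S base had a fold change of 0 or above, between 5.1e-05 (Psmc5) and 0.095 (Psmc6). Psmc4, with the smallest p among them, had 2071, 2498 and 2020 in the FcCD70 libraries and 2097, 2110, 2012 and 1993 in the untreated ones (0.077, SE 0.12). Of the 10 non-ATPase genes 7 were above 0 and 3 below, with a median of 0.059. Psmd8, a lid subunit, had the smallest p of the 44 proteasome genes (unadjusted p = 0.147 in limma). It had 2805, 3781 and 3019 in the FcCD70 libraries, against 2720, 2622, 2859 and 3071 in the untreated ones, and a fold change of 0.22 (SE 0.14). It was higher with FcCD70 in 3 of 3 pairs, by 0.044, 0.53 and 0.078 on the log2 scale, although the groups overlapped. Psmd1, the large scaffold of the base, was lower in 3 of 3 pairs, with 1855, 1546 and 1675 in the FcCD70 libraries and 1947, 1788, 1680 and 1654 in the untreated ones.

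The widest intervals of the 44 proteasome genes were those of the assembly factors Psmg3, Psmd9 and Psmg4. Among the core chaperones Psmg1 (0.11, SE 0.16) and Psmg2 (0.22, SE 0.17) were above 0, and Psmg3 (-0.15, SE 0.28) and Psmg4 (-0.027, SE 0.22) below. Psmg3 had 67.3, 127 and 121 in the FcCD70 libraries and 111, 105, 120 and 117 in the untreated ones, so that FcCD70 1 was low and FcCD70 2 and 3 lay just above the untreated range. Psmd9, a chaperone of the 19S base, showed the largest coefficient of variation of the 44 genes, 25.6%, with 215, 513 and 299 in the FcCD70 libraries and 380, 394, 348 and 343 in the untreated ones. Of its exon bases 25.5% are shared with a non-coding gene on the opposite strand. Psmf1 had 1030, 1127 and 1133 in the FcCD70 libraries, against 1155, 1087, 1123 and 1136 in the untreated ones (-0.034, SE 0.13).

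The same-numbered pairs went different ways. In the pair numbered 2, 42 of 45 genes were higher in the FcCD70 library, with a median log2 difference of 0.39. In the pair numbered 1, 14 were higher and 31 lower in the FcCD70 library (median -0.099), and in the pair numbered 3, 10 were higher and 35 lower (median -0.069). Of all genes, 49.7% to 50.3% were higher in the FcCD70 library of these pairs. The core genes showed the widest split, with medians of -0.14, 0.58 and -0.11 in the pairs numbered 1, 2 and 3, and all 13 were higher in FcCD70 2 than in untreated 2. The immunoproteasome medians were 0.036, 0.43 and -0.10. The sign of the median depended on the pair numbered 2. Without that pair the median over the 45 genes was -0.076, with 8 above 0 and 37 below, and without the pairs numbered 1 or 3 it was 0.16 or 0.14.

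**Figure D3:**
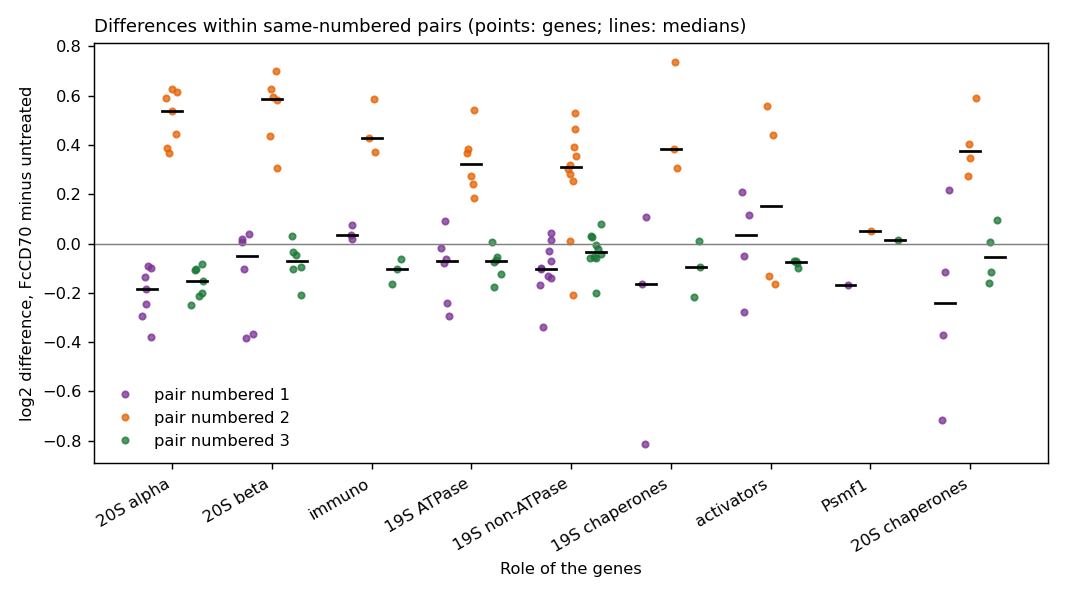
Log2 difference (FcCD70 minus untreated) of each of the 44 proteasome genes (Psmc3ip is not drawn) within the pairs numbered 1, 2 and 3, by the role of the gene. Points are genes and black lines medians. The pair numbered 2 lies above 0 in every role, apart from Psme3, Psme4 and Psmd1, and the other pairs lie around or below 0.

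Across single libraries, FcCD70 2 held the highest of the 7 values for 33 of the 45 genes (73.3%), where it did so for 27.3% of all genes. These were all 7 alpha genes, 5 of 6 constitutive beta genes, all 6 ATPase genes, 7 of 10 non-ATPase genes, all 3 chaperones of the 19S base, 3 of 4 core chaperones, Psme1 and Psmc3ip. None of Psmb8, Psmb9 and Psmb10 was among them. It held the lowest value for 3 of the 45, Psmd1, Psme3 and Psme4, where it did so for 28.4% of all genes. FcCD70 1 held the lowest value for 17 of the 45, against 18.1% of all genes, so FcCD70 2 and FcCD70 1 lay at opposite ends for many of these genes.

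**Figure D4:**
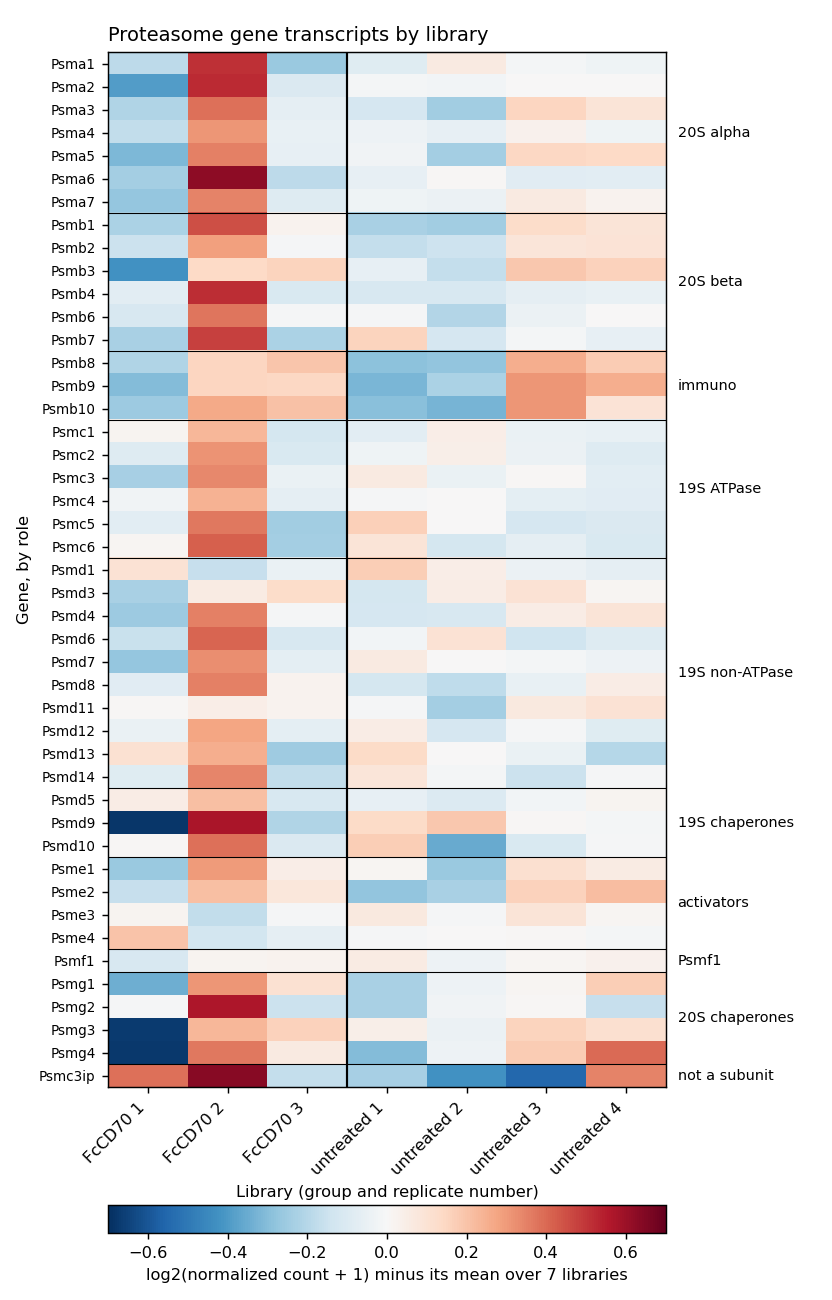
Deviation of each gene from its own mean over the 7 libraries, as log2(normalized count + 1) coded by colour, with genes in rows by role and libraries in columns. FcCD70 2 is high for most core and 19S genes, and Psmb8, Psmb9, Psmb10 and Psme2 are low in FcCD70 1 and untreated 1 and 2. The colours reach their limit at the ends of the scale.

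Transcript length moved with the values of several libraries, FcCD70 2 among them. The principal transcripts of the 45 genes had a median length of 1430 bases, against 3013.5 over all genes tested. Across genes in FcCD70 2, the deviation from the mean of the 7 libraries correlated with log2 length. The Pearson r was -0.45 over the 45 genes and -0.38 over 11076 genes, and the rank (Spearman) correlation was -0.29 and -0.51. Which set followed length more closely thus turned with the measure. The genes share 1 library and are not independent replicates. In FcCD70 1 longer transcripts were higher instead (r 0.42 over the 45 genes, 0.22 over all). The Pearson r over the 45 genes was -0.18 in FcCD70 3, and in the untreated libraries numbered 1 to 4 it was 0.34, 0.20, -0.11 and -0.31. Over all genes it was 0.037 in FcCD70 3, and 0.11, 0.21, -0.067 and -0.080 in the untreated libraries. Among genes under 1500 bases the median deviation was 0.35 for 24 of the 45 and 0.31 for all 1693. From 1500 to 3000 bases it was 0.32 for 17 and 0.10 for all 3809, and above 3000 bases it was -0.055 for 4 and -0.15 for all 5574. When each library's trend on length was removed, FcCD70 2 was highest for 18 of the 45 genes (40.0%), against 23.5% of all genes. The median of the pair numbered 2 was then 0.11 in place of 0.39, and the median fold change over the 45 genes was -0.00065, with 21 above 0 and 24 below.

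**Figure D5:**
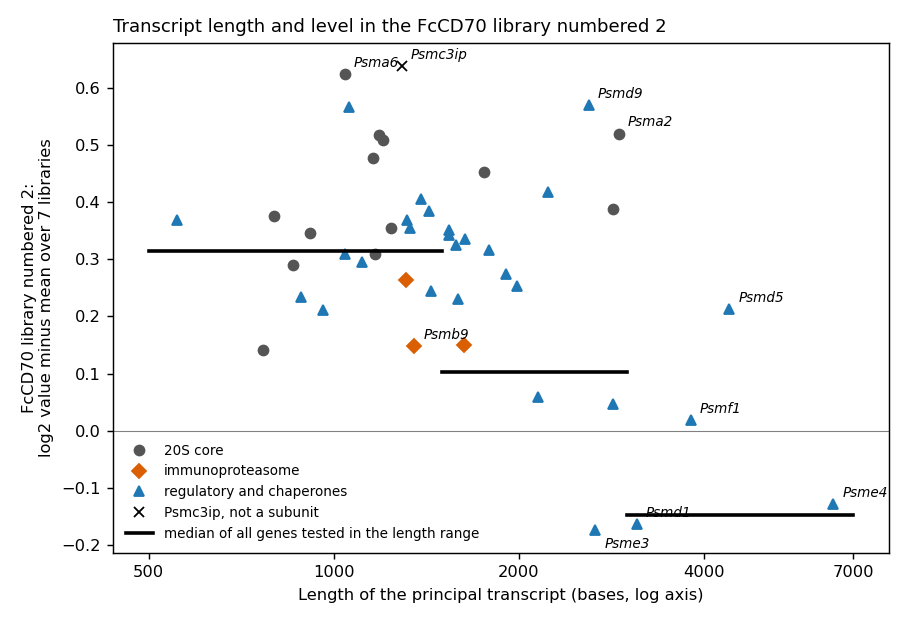
Deviation of each of the 45 genes in the FcCD70 library numbered 2 from its mean over the 7 libraries (log2, vertical axis) against the length of its principal transcript (bases, log axis). Symbols mark the role, and thick lines are the medians of all genes tested in 3 ranges of length, 0.31, 0.10 and -0.15. Psme3, Psme4 and Psmd1 lie below 0.

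The same fit gives a test of the replicate number, whatever the treatment. In the limma F-test of the number terms, given the treatment, 0 of 45 genes were called at an adjusted p under 0.05, where 0.135% of all genes were. At an unadjusted p under 0.05 the count was 1 of 45, Psmb9 (adjusted p = 0.552 in limma), against 8.02% of all genes. The 2 libraries numbered 2 differed in the immunoproteasome genes, with Psmb8 at 6091 in FcCD70 2 and 4530 in untreated 2. The count depended on them. Without FcCD70 2, 8 of the 45 (17.8%) were called, against 16.5% of all genes, and without untreated 2, 33 of the 45 (73.3%) were, against 38.4%. Each of these fits leaves number 2 with 1 library and 1 residual degree of freedom in all, the second with FcCD70 2 as that library, so neither count supports a difference by number.

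Among the untreated libraries alone, both libraries numbered 1 and 2 were below both numbered 3 and 4 for 21 of the 45 genes (46.7%), against 30.5% of all genes, and above both for 9, against 29.4%. The 21 held all 3 immunoproteasome genes, Psme2, 9 of the 13 core genes and none of the 6 ATPase genes. This split was chosen after the values were seen and was not tested. The median deviations of the core genes in untreated 1 to 4 were -0.055, -0.12, 0.032 and 0.0012. With each library's trend on length removed they were 0.032, 0.0063, 0.0048 and -0.038. Those of the immunoproteasome genes were -0.29, -0.28, 0.31 and 0.18 before the removal and -0.24, -0.20, 0.28 and 0.16 after it. The untreated libraries numbered 3 and 4 also held more reads, 21200214 and 23527899, than those numbered 1 and 2, 18159685 and 19715108. The parts of transcript length and of depth in these values were not tested.

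The balance of immunoproteasome to constitutive subunits was compared within libraries, where a size factor cancels. The log2 ratio of the normalized counts of Psmb9 and Psmb6 was 0.25, 0.22 and 0.60 in the FcCD70 libraries (mean 0.36 ± 0.21, SD, n = 3) and 0.13, 0.43, 0.79 and 0.70 in the untreated ones (0.51 ± 0.30, n = 4). The difference was -0.16, with a two-sided exact permutation p of 0.457. For Psmb10 and Psmb7 it was -0.95, -1.14 and -0.50 in the FcCD70 libraries (-0.86 ± 0.33, n = 3) and -1.37, -1.13, -0.61 and -0.77 in the untreated ones (-0.97 ± 0.35, n = 4), a difference of 0.11 with an exact permutation p of 0.743. Adjusted over the 2 ratios both p were 0.743, and 3 against 4 libraries allow no p below 0.0571. Each difference was smaller than the spread between libraries of a group, and the libraries numbered 3 and untreated 4 had the highest ratios of both kinds. Without FcCD70 2 the differences were -0.089 and 0.24. Leaving out 1 library at a time moved the first between -0.29 (without untreated 1) and -0.063 (without untreated 3), and the second between -0.076 (without FcCD70 3) and 0.24.

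Genes that work with the proteasome were read from lists chosen for their roles. Over all genes tested, 49.1% had a fold change above 0. Of 11 tested partners outside the symbol rule, such as the maturation factor Pomp, 9 were above 0 and 2 below, with a median of 0.092 and 0 called. Pomp had 1726, 2789 and 1603 in the FcCD70 libraries, against 2013, 1725, 1836 and 1682 in the untreated ones, and so was high in FcCD70 2 as the core genes were. Of 6 tested genes of the NRF1 list 4 were above 0 and 2 below, with 0 called. Nfe2l1 itself had 2079, 1592 and 2124 in the FcCD70 libraries and 2085, 2037, 2061 and 1910 in the untreated ones (-0.11, SE 0.13). Its lowest value was in FcCD70 2, which held the lowest value for 28.4% of all genes. Whether this bears on the proteasome genes was not tested. Of 11 genes of ubiquitin supply and shuttling 6 were above and 5 below 0, with 0 called.

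Of the 12 genes of peptide loading and of immunoproteasome induction, 9 were above 0 and 3 below, against 49.1% of all genes above 0. Again 0 were called by treatment or by number in the fit of all libraries. Without FcCD70 2, in the fit with 1 residual degree of freedom above, Tap1, Tap2 and B2m were called by number. So were Adrm1, Shfm1, Rps27a and Vcp of the other lists. Of the T cell markers, Cd4, Il2ra, Ikzf2 and Ctla4 were called too, and Cd3e and Foxp3 were not. Such calls were thus not particular to this list, and with 1 library of number 2 they support no difference by number. Tap1, the peptide transporter gene beside Psmb9, had 3688, 3963 and 4470 in the FcCD70 libraries and 3749, 3816, 4356 and 4404 in the untreated ones (0.023, SE 0.12). As in Psmb9, the libraries numbered 1 and untreated 2 were low and those numbered 3 and 4 high. Irf1, a transcription factor that induces immunoproteasome genes, had 2345, 2990 and 2750 in the FcCD70 libraries, against 2383, 2368, 2704 and 2885 in the untreated ones (0.11, SE 0.13), with the same libraries low. Nlrc5, the transactivator of MHC class I genes, had 5197, 3137 and 6108 in the FcCD70 libraries and 5452, 5145, 5797 and 5689 in the untreated ones (-0.24, SE 0.16), and FcCD70 2 lay far below the rest.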

How the data were processed

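The FcCD70 and untreated libraries were made from mRNA with a strand-marking TruSeq kit, per the labels' protocols. The submitters' processing notes name the build GRCm38.p4 and the tools TopHat2, SAMtools, HTSeq and DESeq2. Which annotation was used and whether strand was used in counting is not given in the sources used here. The library columns of the deposited table are a signal, each gene's read count divided by 1 size factor per library: 100% of values were whole multiples of 1 step within 0.01, so reads could be recovered. The deposited log2 fold changes with their errors, the deposited score (a Wald statistic) and the deposited p-values are, per the file headers, output of DESeq2. Their fold change is coded untreated minus FcCD70, and its sign was turned here.

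Genes with a mean of at least 10 were tested with limma (3.58.1, trend) on log2(value + 1), with the replicate number as a block because the study's table is named as paired. The plan allowed for raw counts; the values were not, so its test for other units was used. Untreated 4 has no partner and drops out of the fold change, which leaves 2 residual degrees of freedom. Fold changes on this scale understate those of low genes. Ratios were compared with exact permutation tests; the planned ratio of Psmb8 to Psmb5 was not analysed here. Alternatives were edgeR (4.0.16) and DESeq2 (1.42.0) on recovered reads, other filters, pseudocounts and scalings, and, chosen after seeing the data, removal of a lowess trend on transcript length (span 0.4). The fits were tested on simulated data. Lengths and positions are from GENCODE M21, which matched 99.6% of the rows, and per-kilobase levels use the longest principal transcript. Of the genes, 12 share exon bases with a gene on the opposite strand, 2 with one on the same strand, and 4 annotated pseudogenes carry a member's name, so their counts are uncertain. At these depths 3 reads, the floor of a count of 0, are 2.61 to 3.37 normalized counts.

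Some genes and motifs of the lists are not reported here. The genes, lists and tests were chosen with earlier results of these data known. Fold changes with errors are given for the catalytic, immunoproteasome, activator, inhibitor and core chaperone genes whatever their result, for any gene past the threshold, and for the gene with the smallest p in each class of the core and cap. Psmd1, Psmd9 and Psmc3ip were singled out after their values were seen.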

Additional observations from a re-analysis of the deposited data

How the results depend on the processing

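Called counts rest on few libraries. By treatment, 0 of 11083 genes passed in the limma fit with the block and 0 without it, with other pseudocounts, filters or TMM factors, and with edgeR; 1 passed with DESeq2 and 1 with the length trend removed, and 0 to 19 when libraries were left out (19 without the pair numbered 2, 6 without that numbered 3). The 45 genes gave 0 in each of these. By replicate number, 15 genes passed in limma, 7 with TMM factors, 0 with edgeR and 262 with the length trend removed. When single libraries were left out the count was 29 to 4261, and among the 45 genes 0 to 33. The cause was not tested.

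No replicate block changed no call: 0 genes and 0 of the 45 passed without it. Deviations of same-numbered libraries from their group means correlated at 0.30, 0.014 and 0.43 for the numbers 1, 2 and 3. Number 2 thus gave no sign of pairing, and FcCD70 2 correlated best with untreated 1 (0.026). FcCD70 1 and 3 correlated best with their own number. However, FcCD70 1 also correlated with untreated 2 (0.26) and FcCD70 3 with untreated 4 (0.35). FcCD70 1 was negative with untreated 3 and 4, and FcCD70 3 with untreated 1 and 2. These values cannot tell pairing by number from a split of numbers 1 and 2 against 3 and 4. In the blocked ratios the differences were -0.095 (Psmb9/Psmb6) and 0.17 (Psmb10/Psmb7), with an exact sign-flip p of 0.5 each (smallest possible 0.25). The second ratio lay between -0.076 and 0.24 when single libraries were left out, negative without FcCD70 3 or untreated 1 (-0.028).

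Of 360 values of 18 named genes under alternatives, 48 changed sign and 0 passed the threshold; Psmd8, Psme3 and Psmg2 kept their sign in all 20. Reversed values were -0.0084 for Psmb9 without the block, -0.0085 (edgeR) and -0.0039 (DESeq2) for Psmb7, and -0.0056 (edgeR) and -0.00070 (DESeq2) for Psme4. With the length trend removed they were -0.093 with the block and -0.053 without it for Psmb7, -0.0085 and -0.074 for Psmb9, -0.026 and -0.027 for Psme1, -0.00065 for Psmc4 and -0.029 for Psmg1 without the block. When libraries were left out the fold change ran from -0.16 to 0.27 for Psma6, -0.034 to 0.31 for Psmb10, -0.0071 to 0.33 for Psmb4, -0.036 to 0.31 for Psmb6, -0.30 to 0.19 for Psmb7, -0.0061 to 0.25 for Psmb8, -0.12 to 0.19 for Psmb9, -0.0060 to 0.15 for Psmc4, -0.17 to 0.24 for Psme1, -0.0084 to 0.28 for Psme2, -0.10 to 0.073 for Psme4, -0.076 to 0.033 for Psmf1, -0.098 to 0.23 for Psmg1, -0.36 to 0.14 for Psmg3 and -0.36 to 0.16 for Psmg4. Each library held at least 18159685 reads, and counting error weighs most on the low genes Psmg3, Psmg4 and Psmc3ip.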

Other observations

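Psmc3ip, a partner of the recombinases of meiosis, had 71.5, 85.4 and 48.5 normalized counts in the FcCD70 libraries and 46.2, 40.4, 36.9 and 69.6 in the untreated ones. It was higher with FcCD70 in 3 of 3 same-numbered pairs, and its log2 fold change was 0.69 (SE 0.33), with a 95% interval of -0.05 to 1.43 and an unadjusted p of 0.0647 (adjusted p = 0.9998) in limma, while untreated 4, which has no partner, lay within the FcCD70 range. It shares 21.2% of its exon bases with Mlx on the opposite strand. Psma8 had at most 3.37 normalized counts in the FcCD70 libraries and 1.94 in the untreated ones, against a floor of 2.61 to 3.37 for 3 reads. Psmb11 had 0, 3.37 and 5.29 in the FcCD70 libraries and 2.20, 14.1, 2.91 and 1.74 in the untreated ones.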
